A study of Homo sapiens with 8 samples.

Results

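The genes described here encode the chains of laminin, the large secreted protein that organises basement membranes. The 10 members were taken by name, as LAMA1 to LAMA5 (alpha chains), LAMB1 to LAMB3 (beta chains), and LAMC1 and LAMC3 (gamma chains), from 58217 genes with a quantified transcript, and 9 of them, all but LAMB3, were among the 18203 genes with enough counts to be tested. A further beta chain, LAMB4, was measured beside them. RNA came from oligodendrocyte progenitor cells (OPCs) that had been made from a single embryonic stem cell line, the established human line H9, by a differentiation carried out on Matrigel, and that received no SOX10 transgene. The OPCs were then held for 2 days on Matrigel (2 libraries, replicates 2 and 3), on vitronectin (VN, 3 libraries) or on VNP2 (3 libraries). Matrigel, the control substrate, is an extract of basement membrane that is itself rich in laminin, and VN is a cell-adhesive glycoprotein. VNP2 is a designed peptide derived from vitronectin and joined to a mussel adhesive protein. The study's methods describe fixing the peptides to chemically activated vessels and give no such step for VN or Matrigel. The part of this coating step in the differences was not tested. The comparisons ask which laminin chains the cells themselves transcribed at other levels once the laminin-rich substrate was replaced. The study's methods say in general that experiments were repeated but do not tie the sequenced libraries to separate cultures, and another Matrigel library that the study describes was not analysed here. The p-values thus measure the spread between libraries, which may be technical.

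Laminin is a trimer of an alpha, a beta and a gamma chain that are wound together inside the cell and then secreted. The best known forms, though not all, are cross-shaped and have short arms that link trimers into a sheet. The gamma chain made from LAMC1 holds nidogen, which ties the sheet to collagen IV. The globular end of the alpha chain binds integrins and dystroglycan on the cell surface. The alpha chain therefore gives a trimer its receptor preference. In the nervous system, the LAMA2 chain is known for its role in oligodendrocyte survival and myelination, whereas the LAMA4 and LAMA5 chains are best known from the basement membranes of blood vessels.

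Libraries held 37997896 to 39429453 estimated counts each. Of the OPC markers, OLIG1, OLIG2, NKX2-2, PDGFRA and CSPG4 were present in all 8 libraries. SOX10, which the study also used as an OPC marker, was nearly absent, with 20 estimated counts over all libraries together. VN replicate 1 stood apart from the other VN libraries, with a median chi-square over genes of 2.26 and 2.62 against them where the other VN pair gave 0.785, and leaving it out gave the same called laminin genes in every comparison. Values below are normalized counts per library unless TPM is named, which is an abundance per length scaled to the same total in every library. Differences are log2 fold changes with a standard error (SE) from the quasi-likelihood test of edgeR. A gene was called at a Benjamini-Hochberg adjusted p under 0.05 over all genes tested.

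The laminin genes moved in separate ways, by chain. LAMA4 and LAMA2 were higher on VNP2 than on either other substrate, and LAMB1 and LAMC1 were lower on VN and on VNP2 than on Matrigel. LAMA1, LAMA3, LAMA5 and LAMB2 showed no call in any comparison. Across the 3 substrates, 4 of the 9 tested members were called (LAMA2, LAMA4, LAMB1 and LAMC1), where 19.3% of all genes were. Against Matrigel, VN had 2 called members, both lower, where 15.3% of all genes were called, 5.66% higher and 9.64% lower. VNP2 had 5 called members against Matrigel, 3 of them higher and 2 lower, where 16.6% of all genes were called, 7.43% higher and 9.15% lower. Between VNP2 and VN, 3 members were called and all were higher on VNP2, where 5.10% of all genes were called, 3.09% higher and 2.01% lower. That last background went from 929 genes to 1997 without VN replicate 1. Libraries did not overlap between the groups for 5 of 9 tested members on VN against Matrigel (44.4% of all genes), 7 on VNP2 against Matrigel (48.1%) and 5 between VNP2 and VN (23.6%). The comparisons of VN and VNP2 with Matrigel share the same pair of Matrigel libraries, so they are not separate evidence. In bulk RNA, fewer cells that express a gene and less RNA in each cell cannot be told apart.

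**Figure D1:**
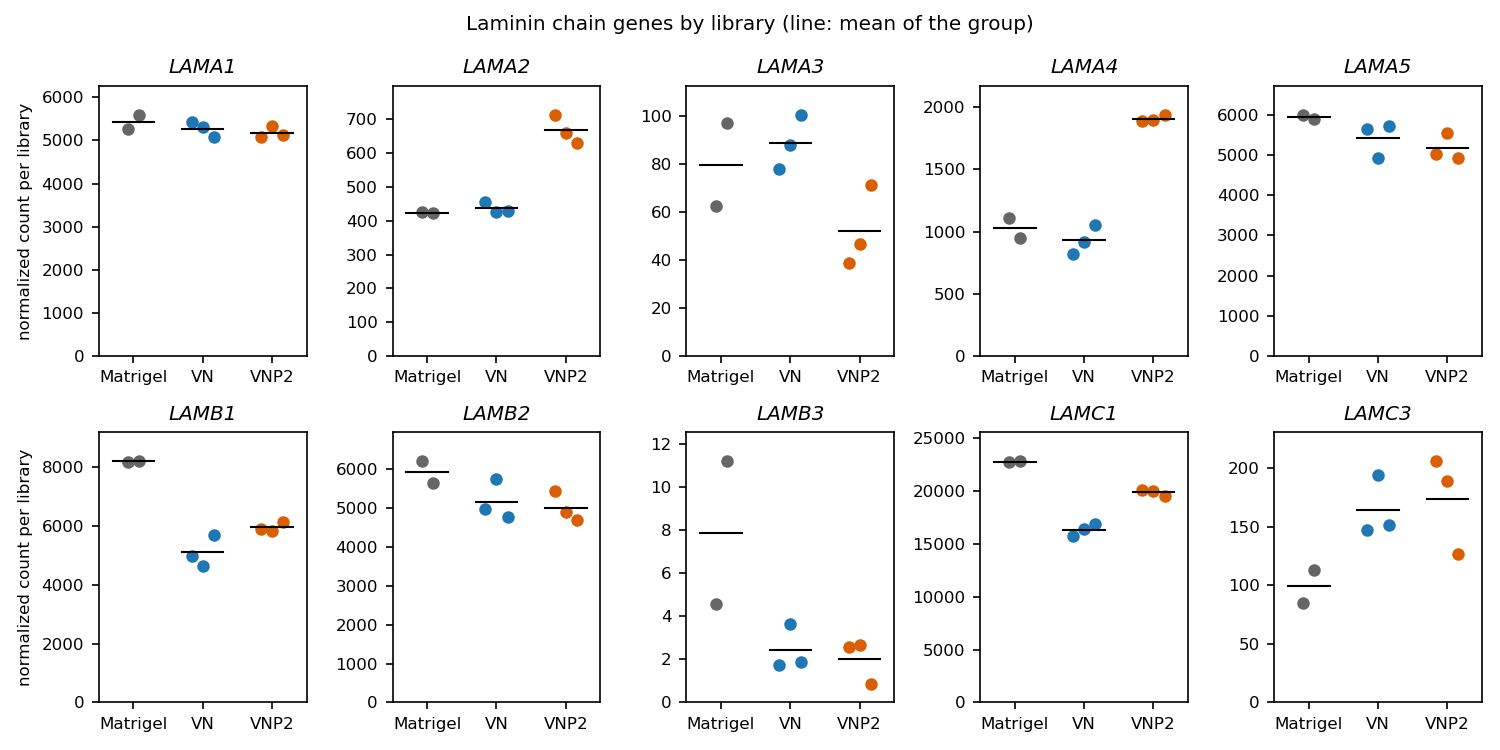
Normalized counts of the 10 laminin chain genes, 1 point per library and a line at the group mean, with each vertical axis starting at 0. For LAMA4 the VNP2 libraries sit between 1891 and 1937 while all others sit between 822 and 1109, and for LAMB1 and LAMC1 the Matrigel libraries lie above all others.

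The promoters of the 4 genes called across the substrates are shown because the genes fall into the pair that was higher on VNP2 and the pair that was lower away from Matrigel. Each sequence gives the 250 bases before the start annotated in RefSeq on GRCh38.p14, on the strand of the gene. Of the 10 members, 8 matched an entry (LAMA1 and LAMC3 did not). These starts differ from those of the GENCODE gene spans given below. The LAMA4 window lies wholly inside its span and the LAMB1 window partly, so other starts would give other windows. Capitals mark matches, on either strand, to the GC box GGGCGG (reverse complement CCGCCC) and to the core of the TEAD (M-CAT) motif GGAATG (reverse complement CATTCC). The TATA box TATAAA and the AP-1 motif TGANTCA were searched as well and had no match in these 4 windows.
LAMA2 (chr6:128882888-128883137, plus strand): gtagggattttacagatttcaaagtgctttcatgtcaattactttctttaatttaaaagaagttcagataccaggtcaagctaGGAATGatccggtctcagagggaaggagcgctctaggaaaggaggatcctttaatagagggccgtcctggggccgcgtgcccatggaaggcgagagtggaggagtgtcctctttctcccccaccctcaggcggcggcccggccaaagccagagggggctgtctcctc
LAMA4 (chr6:112254568-112254817, minus strand): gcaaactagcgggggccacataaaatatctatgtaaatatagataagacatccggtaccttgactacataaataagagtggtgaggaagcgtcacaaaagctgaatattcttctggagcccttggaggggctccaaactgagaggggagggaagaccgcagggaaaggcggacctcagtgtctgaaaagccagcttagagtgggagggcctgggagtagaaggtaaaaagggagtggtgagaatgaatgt
LAMB1 (chr7:108003162-108003411, minus strand): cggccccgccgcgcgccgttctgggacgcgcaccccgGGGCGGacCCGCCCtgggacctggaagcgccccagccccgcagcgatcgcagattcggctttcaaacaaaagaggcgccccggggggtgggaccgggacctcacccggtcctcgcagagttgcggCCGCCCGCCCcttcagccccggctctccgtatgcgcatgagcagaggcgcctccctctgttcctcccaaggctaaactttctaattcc
LAMC1 (chr1:183023170-183023419, plus strand): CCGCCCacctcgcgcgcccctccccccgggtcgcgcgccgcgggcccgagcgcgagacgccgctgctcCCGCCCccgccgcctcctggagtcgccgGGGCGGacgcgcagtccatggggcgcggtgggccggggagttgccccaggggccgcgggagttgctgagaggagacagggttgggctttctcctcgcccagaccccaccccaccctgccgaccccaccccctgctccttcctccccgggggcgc

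The windows of LAMB1 and LAMC1 were rich in G and C, at 70.4% and 79.6% of bases, and held 4 and 3 GC boxes, of which 2 in LAMB1 overlapped. Those of LAMA2 and LAMA4 had 53.2% and 48.4% G and C and no GC box, and LAMA2 held 1 TEAD core. Over 35116 promoters of the same length the median G and C content was 58.0%, 42.6% held a GC box, 11.9% a TEAD core, 10.7% a TATA box and 6.57% an AP-1 motif. The window of LAMA5, which was not called across the substrates, had 82.8% G and C and 5 GC boxes. Those of LAMA3 and LAMB2, also not called there, had 60.4% and 58.4% and 1 GC box each. These matches describe the letters of the windows only.

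Among the alpha chains, LAMA4 differed most by substrate. Its counts were 1109 and 950.0 with Matrigel, 822, 919.6 and 1052 with VN, and 1891, 1895 and 1937 with VNP2. Every VNP2 library was above every other library, while the Matrigel and VN libraries overlapped. LAMA4 was 85.5% higher on VNP2 than on Matrigel, a log2 fold change of 0.89 ± 0.096 (SE, 95% interval 0.68 to 1.10, adjusted p = 0.000117), and 2.05-fold higher than on VN, a log2 fold change of 1.04 ± 0.085 (SE, 95% interval 0.85 to 1.23, adjusted p = 9.15e-05). Genes called higher on VNP2 than on both other substrates, as LAMA4 and LAMA2 were, made up 1.85% of all genes tested. Between VN and Matrigel, LAMA4 gave -0.15 ± 0.097 (SE, 95% interval -0.36 to 0.068, adjusted p = 0.347). In the authors' own normalized counts, built on a later transcript set, LAMA4 was 1104 and 875 with Matrigel, 993, 1086 and 1082 with VN, and 1946, 1956 and 1951 with VNP2, and there the VNP2 excess over VN was 0.89 on the log2 scale (limma, adjusted p = 3.94e-05). The VNP2 excess over Matrigel was 0.99 there (limma, adjusted p = 7.73e-06). The groups kept the same order against VNP2 in that table, and the sign of the small VN to Matrigel difference turned.

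LAMA2, the alpha chain that is lost in merosin-deficient muscular dystrophy, was less abundant per length than LAMA4 (2.90 against 15.8 TPM on VNP2) and was called in the same comparisons. Its counts were 425 and 423 with Matrigel, 457, 427 and 430.2 with VN, and 714, 660.5 and 629.6 with VNP2. The VNP2 libraries again stood above all others, and the VN libraries lay just above the Matrigel pair. LAMA2 was 57.5% higher on VNP2 than on Matrigel (0.66 ± 0.078 SE, 95% interval 0.48 to 0.83, adjusted p = 0.000238) and 52.4% higher than on VN (0.61 ± 0.069 SE, 95% interval 0.46 to 0.76, adjusted p = 0.000665). The difference between VN and Matrigel was 0.048 ± 0.079 (SE, 95% interval -0.13 to 0.22, adjusted p = 0.738), far smaller than the VNP2 differences.

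Several marker lists also moved between these libraries. The summed TPM of 8 mesenchymal and pericyte markers was 530 to 536 on Matrigel, 584 to 621 on VN and 509 to 544 on VNP2, so that the VNP2 range enclosed that of Matrigel. Within that list COL1A1 fell on VNP2 against Matrigel by 1.41 on the log2 scale, and ACTA2 by 0.83, whereas COL1A2, COL3A1, LUM, DCN and TWIST1 rose. The 6 endothelial markers summed to 19.9 to 21.4, 21.1 to 25.2 and 21.3 to 22.7 TPM, with PECAM1 at 36 estimated counts over all 8 libraries and CDH5 and TEK called lower on VN and VNP2. The 6 OPC markers summed to 107 to 109 TPM on Matrigel, 136 to 138 on VN and 138 to 145 on VNP2, and all 5 of the tested ones were called higher on VNP2 than on Matrigel. The 4 skeletal muscle markers summed to 0.582 to 1.97 TPM, with MYOD1, MYOG and DES under 10 counts per library on average. The 4 neuronal markers summed to 547 to 576, 548 to 615 and 577 to 602 TPM. The 5 Schwann and neural crest markers summed to 2.17 to 2.59, 3.06 to 4.26 and 3.01 to 4.96 TPM, with SOX10 and FOXD3 under 10 counts per library on average. Of the 3 tested in that list, 1 was called higher on VNP2 than on Matrigel, and none was called on VN. The part of these other cell types in the LAMA2 and LAMA4 values was not tested.

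The most abundant alpha chains did not follow this pattern. LAMA1, the alpha chain of early embryonic laminin and the main one of Matrigel itself, had 5275 and 5593 with Matrigel, 5429, 5308 and 5078 with VN, and 5082, 5333 and 5133 with VNP2. The 3 groups overlapped. Its differences were -0.044 (adjusted p = 0.558) for VN and -0.068 (adjusted p = 0.350) for VNP2 against Matrigel, and -0.025 (adjusted p = 0.788) between VNP2 and VN. The intervals of those differences were -0.14 to 0.054, -0.17 to 0.029 and -0.11 to 0.063, and they reflect the spread between these libraries only. Without the correction for transcript length, the differences from Matrigel were -0.115 (adjusted p = 0.0789) on VN and -0.109 (adjusted p = 0.0945) on VNP2.

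LAMA5, the widespread alpha chain of mature basement membranes, had 6000.3 and 5893 with Matrigel, 5657, 4929 and 5715 with VN, and 5028, 5544 and 4921 with VNP2. The Matrigel pair was above all other libraries, and VN and VNP2 overlapped. The difference from Matrigel was not called on VN (-0.13, adjusted p = 0.231) or on VNP2 (-0.20 ± 0.068 SE, 95% interval -0.35 to -0.053, adjusted p = 0.0685), though 6 of 17 alternative settings called the latter, DESeq2 among them (-0.20, adjusted p = 0.0257). LAMA3, an alpha chain of epithelial anchoring structures, was rare. Its counts were 62.6 and 97.2 with Matrigel, 77.9, 87.9 and 101 with VN, and 38.7, 46.7 and 71.5 with VNP2. The VNP2 libraries were below the VN libraries and overlapped those of Matrigel, and neither the difference from VN (-0.79 ± 0.25 SE, 95% interval -1.35 to -0.23, adjusted p = 0.111) nor that from Matrigel (-0.62, adjusted p = 0.172) was called, though 4 of 17 alternative settings called the first. The difference from Matrigel was -0.92 without Matrigel replicate 2 and -0.29 without replicate 3.

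**Figure D2:**
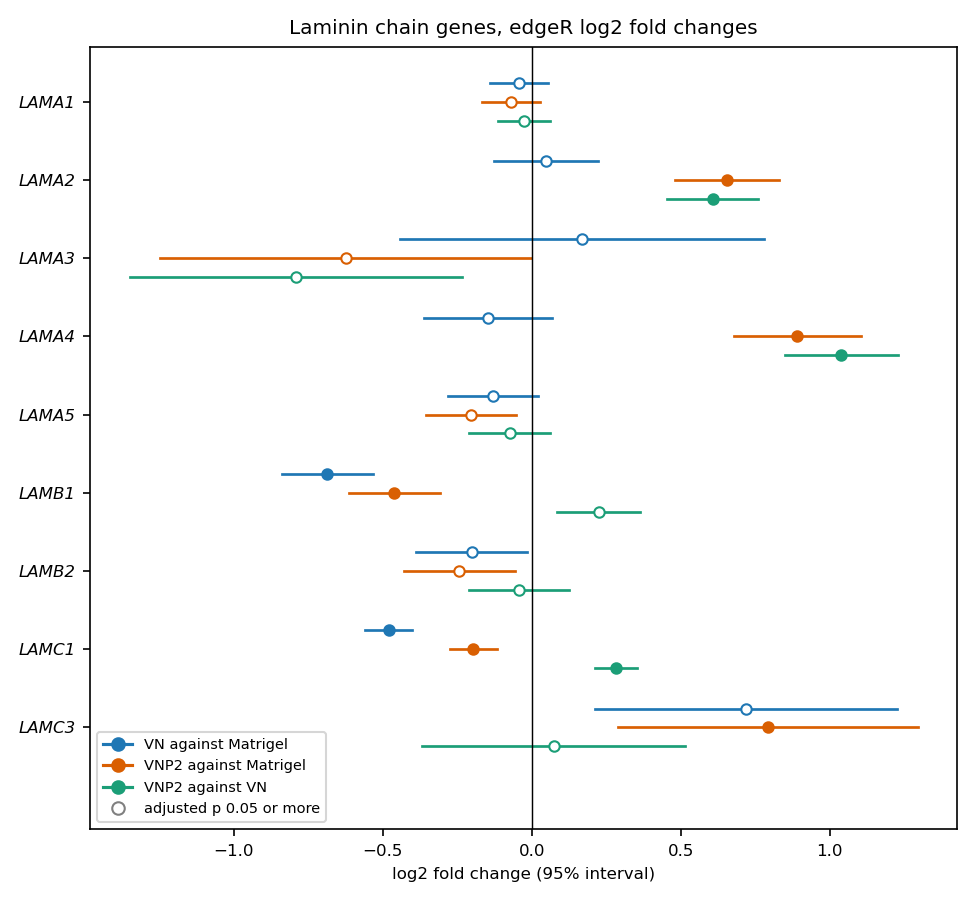
Log2 fold changes of the 9 tested laminin genes in the 3 comparisons, with 95% intervals, where filled points have an adjusted p under 0.05. LAMA2 and LAMA4 lie to the right of 0 in both comparisons of VNP2, and LAMB1 and LAMC1 lie to the left of 0 in both comparisons with Matrigel.

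Of the beta chains, LAMB1 was lower away from Matrigel. LAMB1 is the beta chain of most embryonic laminins. Its counts were 8183 and 8186 with Matrigel, 4970.0, 4629 and 5679 with VN, and 5885, 5814 and 6137 with VNP2. The Matrigel pair lay above every VN and VNP2 library, and the VNP2 values were all higher than the VN values. LAMB1 was 37.8% lower on VN than on Matrigel (-0.69 ± 0.069 SE, 95% interval -0.84 to -0.53, adjusted p = 0.000101) and 27.4% lower on VNP2 (-0.46 ± 0.069 SE, 95% interval -0.61 to -0.31, adjusted p = 0.00108). Genes called lower in both of these comparisons, as LAMB1 and LAMC1 were, made up 6.38% of all genes tested. Between VNP2 and VN, the difference of 0.22 ± 0.063 (SE, 95% interval 0.085 to 0.36, adjusted p = 0.0734) was not called, while 5 of 17 alternative settings called it.

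LAMB2, the beta chain of synaptic and kidney basement membranes, had 6193 and 5643 with Matrigel, 4961, 5742 and 4752 with VN, and 5428, 4889 and 4681 with VNP2. The Matrigel libraries overlapped VN and lay above VNP2. Its differences from Matrigel, -0.20 ± 0.084 (SE, 95% interval -0.39 to -0.015, adjusted p = 0.137) on VN and -0.24 ± 0.084 (SE, 95% interval -0.43 to -0.058, adjusted p = 0.0766) on VNP2, were not called, though the second was called by 6 of 17 alternative settings, DESeq2 among them (-0.24, adjusted p = 0.0226). Without the correction for transcript length that difference was -0.023 (adjusted p = 0.889). LAMB3, a beta chain of epithelial laminin, was at the edge of detection. Its estimated counts were 5 and 5 with Matrigel, 2, 4 and 2 with VN, and 3, 3 and 1 with VNP2, and it was not tested.

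LAMC1 encodes the gamma chain of nearly all laminin trimers and was the most abundant member by counts and by TPM. Its counts were 22745 and 22778 with Matrigel, 15726, 16377 and 16876 with VN, and 20081, 19995 and 19522 with VNP2. The 3 substrates did not overlap, with Matrigel highest, VNP2 between and VN lowest. LAMC1 was 28.3% lower on VN than on Matrigel (-0.48 ± 0.035 SE, 95% interval -0.56 to -0.40, adjusted p = 1.21e-05), 12.7% lower on VNP2 than on Matrigel (-0.20 ± 0.035 SE, 95% interval -0.27 to -0.12, adjusted p = 0.00353) and 21.7% higher on VNP2 than on VN (0.28 ± 0.032 SE, 95% interval 0.21 to 0.35, adjusted p = 0.000651). It was the only member of those tested that was called in all 3 pairs.

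LAMC3, a gamma chain described in brain and retina, was rare. Its counts were 84.99 and 113 with Matrigel, 147, 194 and 152 with VN, and 206, 189 and 127 with VNP2. Every library on VN or VNP2 was above the Matrigel pair. LAMC3 was called higher on VNP2 (0.79 ± 0.23 SE, 95% interval 0.29 to 1.29, adjusted p = 0.0373) and not on VN (0.72 ± 0.23 SE, 95% interval 0.21 to 1.22, adjusted p = 0.0599), and the difference between VNP2 and VN was not called (0.074 ± 0.20 SE, 95% interval -0.37 to 0.51, adjusted p = 0.881). The VN difference was called by 6 of 17 alternative settings, DESeq2 among them (0.73, adjusted p = 0.0319), and was 0.091 (adjusted p = 0.758) without the correction for transcript length. The VNP2 call was lost without Matrigel replicate 2 (0.61, adjusted p = 0.245), Matrigel replicate 3 (1.02, adjusted p = 0.0658), VNP2 replicate 1 (0.66, adjusted p = 0.1) or VNP2 replicate 2 (0.72, adjusted p = 0.103), and without the correction for transcript length (0.37, adjusted p = 0.170). Its full-length coding transcript alone had TPM values of 0.597 and 0.802 with Matrigel, 0.815, 0.676 and 0.696 with VN, and 0.717, 1.03 and 0.939 with VNP2, and these were values that overlapped between substrates, and the short non-coding transcripts LAMC3-203 and LAMC3-204 were listed at 0 in both Matrigel libraries and reached 0.491 TPM elsewhere.

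LAMB4, the beta chain outside the 10 members, stayed under 50 counts in every library and was not called. On GRCh38, LAMB1 (chr7:107923799-108003255) and LAMB4 (chr7:108023548-108130356) are neighbours on the minus strand, and LAMC1 (chr1:183023460-183145592) is on the plus strand. LAMA4 (chr6:112108760-112254939) and LAMA2 (chr6:128883141-129516569) lie on the same chromosome but far apart. The other members are at chr18:6941744-7117814 (LAMA1), chr18:23689443-23956222 (LAMA3), chr20:62307955-62367312 (LAMA5), chr3:49121114-49133118 (LAMB2), chr1:209614870-209652466 (LAMB3) and chr9:131009082-131094473 (LAMC3).

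A pair of keratins moved the same way as LAMB1 and LAMC1, while no other epithelial marker tested was called lower on both VN and VNP2. The summed TPM of 6 epithelial genes was 160 to 170 on Matrigel, 93.0 to 94.8 on VN and 103 to 108 on VNP2. KRT8 and KRT18, keratins of simple epithelia that other cells also express, were called lower on VN (-0.84 and -1.14) and on VNP2 (-0.66 and -0.90), EPCAM was not called, CDH1 was called lower on VNP2 alone (-1.01, with 0.12 on VN, and called between VNP2 and VN at -1.13), and KRT5 and TP63 averaged under 10 counts per library. The summed TPM of 5 neural progenitor markers was also highest on Matrigel, at 3350 to 3429, against 2799 to 2847 on VN and 3055 to 3085 on VNP2, with VIM and NES called lower on both, SOX1 called higher on VN (0.28) and SOX2 not called. The summed TPM of 4 pluripotency markers was 61.2 to 64.01 on Matrigel, 47.3 to 48.6 on VN and 38.97 to 42.2 on VNP2, with LIN28A called lower on VN (-0.56) and on VNP2 (-0.67) and POU5F1 called lower on VNP2 (-1.26) and not on VN (0.30). The part of these genes' cells in the laminin values was not tested.

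Levels can be compared between chains only per length, as TPM. On Matrigel, LAMC1 stood at 129 ± 0.78 TPM (SD, n = 2), followed by LAMB1 at 70.3 ± 0.36, LAMB2 at 60.2 ± 3.7, LAMA5 at 33.8 ± 0.26, LAMA1 at 28.4 ± 1.3 and LAMA4 at 8.12 ± 0.85. LAMA2 followed at 1.75 ± 0.0036, and LAMC3, LAMA3 and LAMB3 were each under 1 TPM. On VN (n = 3) the beta chains changed places, with LAMB2 at 55.5 ± 6.0 and LAMB1 at 46.3 ± 5.2, but their libraries overlapped in TPM, and on VNP2 (n = 3) they stood at 53.3 ± 3.9 and 53.5 ± 1.7. With protein-coding transcripts alone, LAMB1 stayed ahead of LAMB2 by mean on VN, at 40.0 against 36.7 TPM. On VNP2 the alpha order over all transcripts remained LAMA5 (30.8 ± 2.0) and LAMA1 (28.3 ± 0.74), with LAMA4 at 15.8 ± 0.26 and LAMA2 at 2.90 ± 0.17. In TPM over all transcripts LAMA5 was above LAMA1 in every library of every substrate, an order that changed with coding transcripts alone.

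The make-up of each chain kind, taken over the 10 members alone, follows from these levels. LAMA4 held 11.2% ± 1.2 of alpha-chain TPM with Matrigel, 10.8% ± 1.3 with VN and 20.2% ± 0.80 with VNP2 (SD, n = 2, 3 and 3). In the same order, LAMA2 held 2.42% ± 0.0071, 2.66% ± 0.094 and 3.71% ± 0.28. The share of LAMA5 was 46.6% ± 0.60, 45.3% ± 2.1 and 39.4% ± 1.3. The LAMB1 share of beta-chain TPM was 53.8% ± 1.6 with Matrigel, 45.5% ± 4.9 with VN and 50.1% ± 2.4 with VNP2. The VN and VNP2 shares overlapped. LAMC1 held 99.5% of the TPM of LAMC1 and LAMC3 together with Matrigel, 98.8% with VN and 98.9% with VNP2.

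Summed alpha-chain TPM was 72.3 to 72.8 on Matrigel, 69.8 to 74.6 on VN and 76.5 to 81.0 on VNP2. Summed beta-chain TPM was 128 to 133, 96.8 to 104.9 and 104.4 to 110.5, and summed gamma-chain TPM was 129 to 131, 94.0 to 103.8 and 118 to 121. The beta and gamma totals were thus highest on Matrigel in every library, and the alpha total was highest on VNP2. Alpha-chain TPM per gamma-chain TPM was 0.557 to 0.559 on Matrigel, 0.692 to 0.767 on VN and 0.634 to 0.673 on VNP2, with no overlap between the 3 substrates. These totals were not tested, and they describe RNA and not protein.

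**Figure D3:**
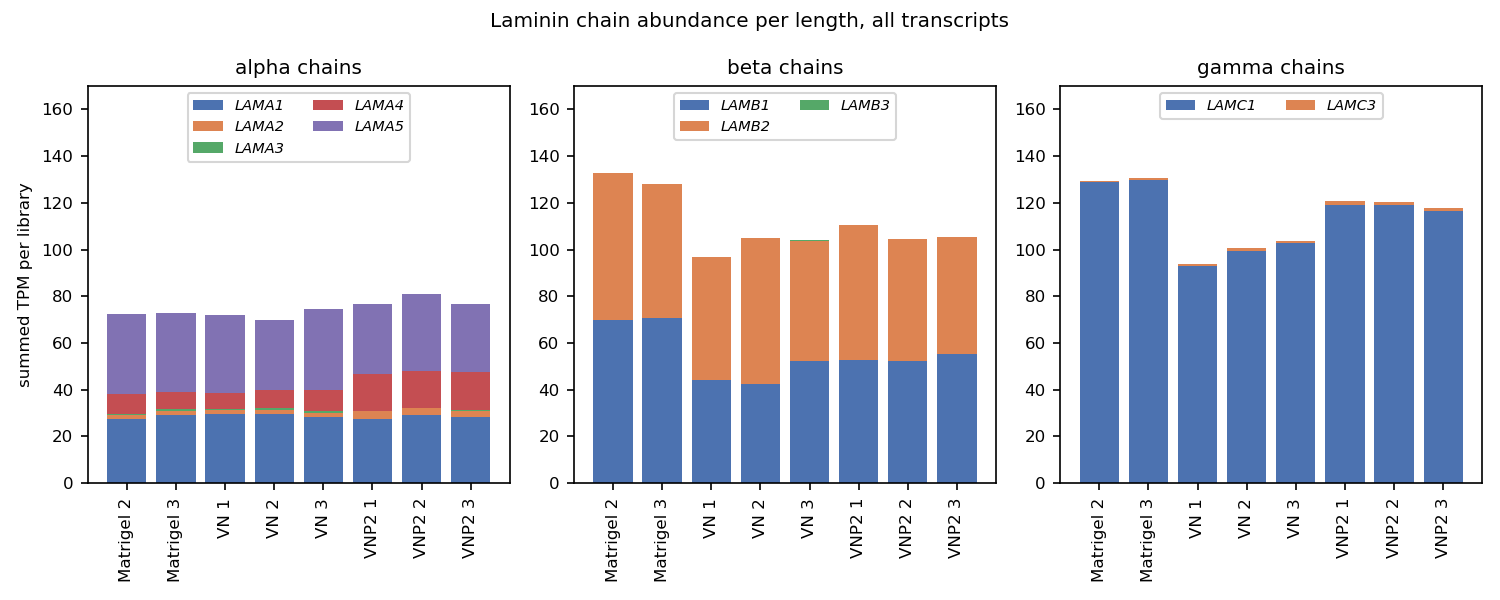
Summed TPM of the alpha, beta and gamma laminin chains in each of the 8 libraries, stacked by gene over the 10 members. The LAMA4 segment is tallest in the VNP2 libraries, and the LAMB1 and LAMC1 segments are tallest in the Matrigel libraries.

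The TPM totals depend on short annotated transcripts. LAMB2-214, a transcript of 343 bases that keeps an intron, was given 9.48 TPM on Matrigel from 67.5 estimated counts over both libraries, whereas the coding transcript LAMB2-201, of 5692 bases, was given 34.0 TPM from 9377. With protein-coding transcripts alone, LAMB1 held 61.8% ± 0.52 of beta-chain TPM with Matrigel, 52.2% ± 2.2 with VN and 53.6% ± 1.1 with VNP2. LAMA4 then held 14.2% ± 1.7, 14.4% ± 1.4 and 25.5% ± 0.84 of alpha-chain TPM. Alpha-chain TPM per gamma-chain TPM was then 0.438 to 0.449, 0.527 to 0.580 and 0.509 to 0.542, so that Matrigel stayed lowest and VN and VNP2 overlapped. LAMA1 and LAMA5 came close, with LAMA5 ahead by mean on Matrigel (23.7 against 21.4 TPM) and on VN (21.5 against 21.01) and LAMA1 ahead by mean on VNP2 (20.9 against 20.5), and LAMA1 was the higher in VN replicate 2 and in VNP2 replicates 1 and 3. This restriction was chosen after the values were seen.

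Transcripts within a gene were read next. LAMC1 was carried by LAMC1-201, a coding transcript of 7929 bases and 28 exons, at TPM values of 123 and 124 with Matrigel, 89.9, 97.7 and 95.1 with VN, and 115, 114 and 111 with VNP2, in the order of the gene counts and without overlap. LAMB1-201, of 34 exons, was at TPM values of 51.6 and 52.8 with Matrigel, 33.3, 33.1 and 34.7 with VN, and 39.3, 38.1 and 35.96 with VNP2, with Matrigel again above all and VNP2 above VN. The other coding LAMB1 transcript of full length, LAMB1-204, had between 2.77 and 4.76 TPM in the 8 libraries, and its substrates overlapped.

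The abundance of LAMA4 was spread over several coding transcripts that differ little. LAMA4-205, the leading one with 39 exons, was at TPM values of 4.62 and 2.85 with Matrigel, 2.58, 4.33 and 2.31 with VN, and 7.08, 5.97 and 7.65 with VNP2, and its VNP2 libraries were above all others. LAMA4-207 ranged from 0.435 to 3.02 TPM between the VNP2 libraries alone, so the split among LAMA4 transcripts was less steady than their sum. LAMA2 was divided between LAMA2-205 and LAMA2-201, and the share of LAMA2-205 ran from 31.8 to 76.8% among the VN libraries, so that for both transcripts the VN libraries overlapped those of each other substrate, while every VNP2 library was above both Matrigel libraries. LAMA1-201 stayed between 20.6 and 21.4 TPM in all 8 libraries. LAMA5-201 was at TPM values of 23.3 and 23.7 with Matrigel, 22.5, 20.5 and 20.98 with VN, and 20.3, 20.7 and 20.3 with VNP2, with the Matrigel pair highest, and LAMB2-201 was at TPM values of 32.9 and 35.1 with Matrigel, 37.5, 32.01 and 33.8 with VN, and 37.1, 34.3 and 36.7 with VNP2, where the substrates overlapped and the Matrigel pair was not the highest.

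**Figure D4:**
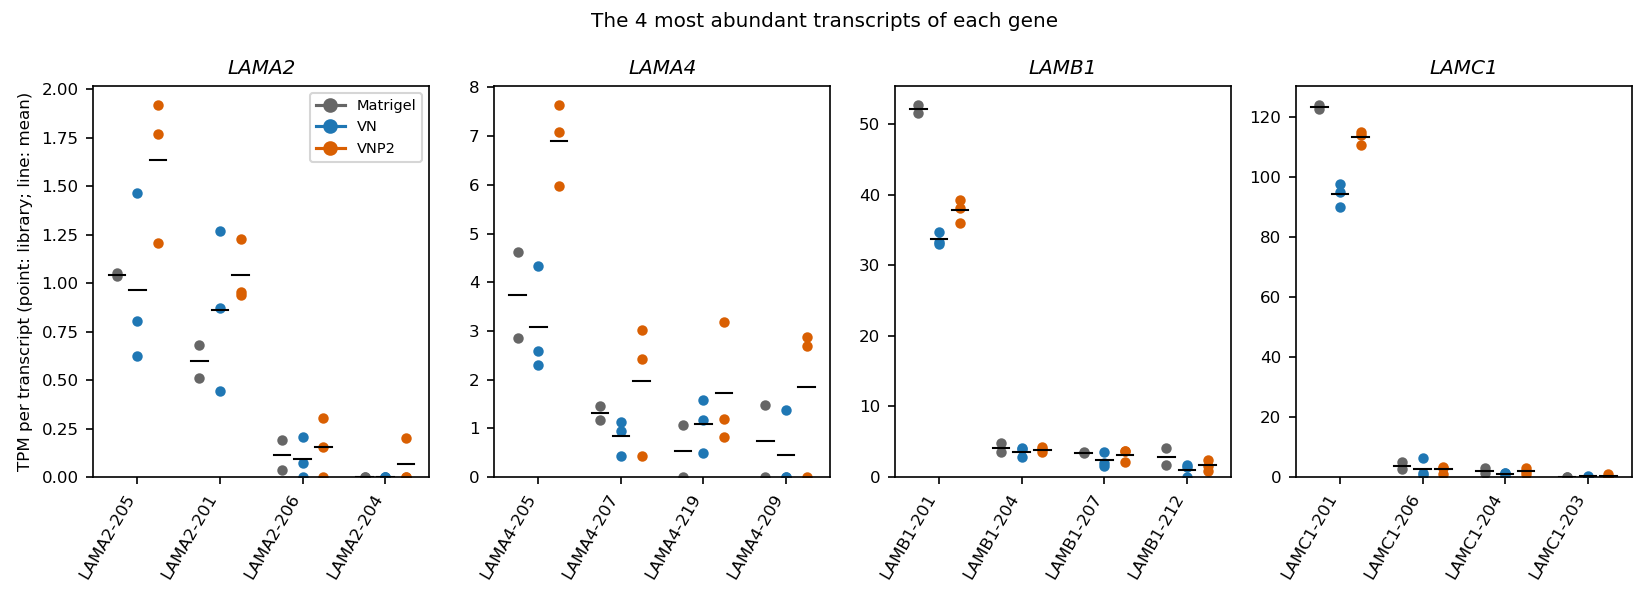
TPM of the 4 most abundant transcripts of LAMA2, LAMA4, LAMB1 and LAMC1, 1 point per library and a line at the group mean, each axis starting at 0. LAMB1-201 and LAMC1-201 separate Matrigel from the other substrates, LAMA4-205 separates VNP2, and LAMA2-205 and LAMA2-201 overlap between VN and each other substrate.

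Genes whose values ran most like a member over the 8 libraries were sought for the most clearly changed chain of each kind, as the Pearson r of log2 normalized counts over 12996 genes, with no test since the libraries of a substrate share it. For LAMA4 these were KCTD12, a subunit of GABA-B receptor complexes (r = 0.988), VAV3 (0.986) and KALRN (0.984), both guanine nucleotide exchange factors. KCTD12 was 0.60 higher on VNP2 than on Matrigel on the log2 scale and VAV3 0.91 higher. For LAMB1 they were TMEM30A, a flippase subunit (0.985), KLF10, a zinc finger factor (0.976), and RAPGEF2, an exchange factor for Rap (0.974). For LAMC1 they were GNG12, a G protein gamma subunit (0.992), GLIPR2 (0.990) and PUSL1 (0.985), and GNG12 differed by -0.53 on VN and -0.24 on VNP2 against Matrigel, close to the LAMC1 values.

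Receptors that bind laminin were mostly lower away from Matrigel. Of 9 listed receptor genes, all tested, 5 were called lower and none higher on VN (15.3% of all genes were called), with a median log2 fold change of -0.26 where the median of all genes was 0.0033. On VNP2, 5 were lower and 1 higher (16.6%), with a median of -0.34 where that of all genes was 0.0018. ITGA3, an integrin alpha subunit that prefers the LAMA3 and LAMA5 chains, had 2253 and 2574 with Matrigel, 1105, 898 and 1001 with VN, and 1009.5, 922 and 982 with VNP2. The Matrigel values were at least double all others, and the differences were -1.27 (adjusted p = 6.71e-06) on VN and -1.31 (adjusted p = 3.53e-06) on VNP2. ITGB1, the beta subunit shared by most laminin-binding integrins, fell by 0.34 on VN (adjusted p = 7.33e-05) and by 0.34 on VNP2 (adjusted p = 5.14e-05). ITGA1 and ITGA7 were called lower on VN (-0.82 and -0.26) and on VNP2 (-0.76 and -0.35).

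The receptors were not uniform. ITGA6, the classical laminin integrin alpha subunit of neural progenitors, was not called on VN (0.11, adjusted p = 0.200) or VNP2 (0.057, adjusted p = 0.537), nor was ITGA2. DAG1, which encodes dystroglycan, the receptor of LAMA1 and LAMA2 chains, was slightly lower on VN (-0.16, adjusted p = 0.0182) and on VNP2 (-0.21, adjusted p = 0.00438). BCAM, an immunoglobulin-like receptor for the LAMA5 chain, had 1293 and 1349 with Matrigel, 1324, 1209 and 1316 with VN, and 1719, 1736 and 1743 with VNP2. Only its VNP2 libraries stood apart, above all others, by 0.39 (adjusted p = 0.000746) against Matrigel and 0.43 (adjusted p = 0.000675) against VN, and it was the single receptor of the 9 called between VNP2 and VN (5.10% of all genes were called). ITGB4 ranged from 2.48 to 41.8 counts and was not called.

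**Figure D5:**
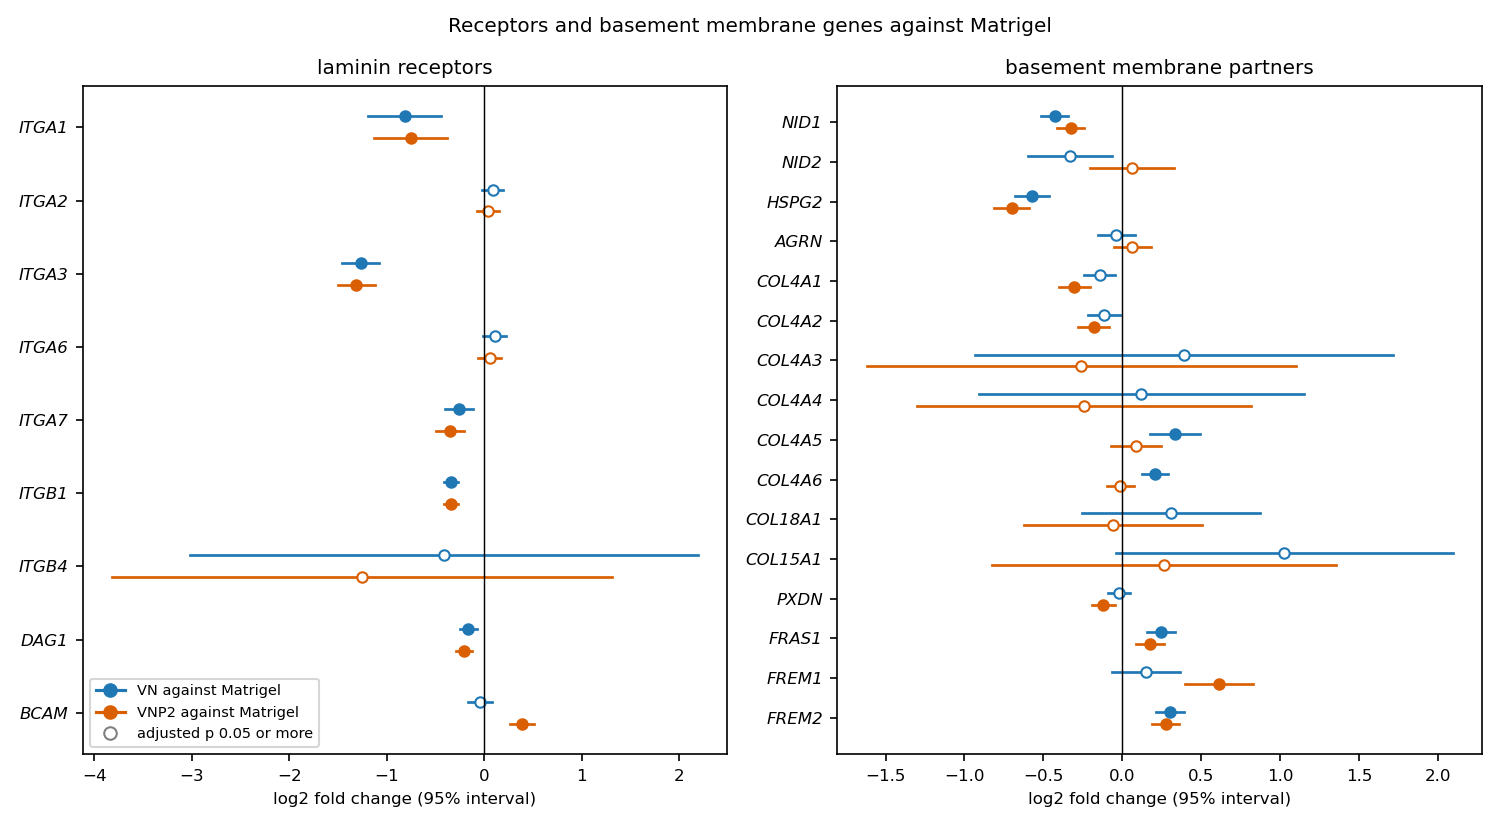
Log2 fold changes against Matrigel, with 95% intervals, of 9 laminin receptor genes and 16 basement membrane genes, where filled points have an adjusted p under 0.05. ITGA3, ITGA1, NID1 and HSPG2 lie to the left of 0 on both substrates, and BCAM and FREM1 lie to the right on VNP2.

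The partners of laminin in the basement membrane went in both directions. Of 16 listed genes, all tested, VN had 4 called higher and 2 called lower than Matrigel (5.66% and 9.64% of all genes). VNP2 had 3 higher and 5 lower than Matrigel (7.43% and 9.15% of all genes), and 1 higher and 2 lower than VN (3.09% and 2.01%). NID1, the nidogen that binds the LAMC1 chain, had 7490.5 and 7011 with Matrigel, 5523, 5355 and 5297 with VN, and 5819, 5785 and 5740.1 with VNP2. The Matrigel pair lay above all others, with differences of -0.43 (adjusted p = 5.28e-05) on VN and -0.33 (adjusted p = 0.00024) on VNP2. HSPG2, which encodes perlecan, the heparan sulfate proteoglycan of basement membranes, had 5051 and 4761 with Matrigel, 3439.9, 3125 and 3335 with VN, and 3001, 2947 and 3103 with VNP2. It was lower on VN (-0.57, adjusted p = 3.54e-05) and on VNP2 (-0.70, adjusted p = 5.48e-06). NID2 was not called (-0.33 on VN and 0.062 on VNP2).

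Collagen IV genes, which encode the network that underlies the laminin sheet, were called in either direction. COL4A1 was lower on VNP2 than on Matrigel (-0.30, adjusted p = 0.00096), and COL4A5 was higher on VN (0.34, adjusted p = 0.0111). COL4A6 was -0.22 (adjusted p = 0.00429) on VNP2 against VN. FREM1, of the FRAS and FREM proteins of embryonic basement membranes, had 1247 and 1484 with Matrigel, 1541, 1341 and 1659.7 with VN, and 2186, 1981 and 2096 with VNP2. Its VNP2 libraries were above all others, by 0.61 (adjusted p = 0.00154) against Matrigel and 0.46 (adjusted p = 0.0102) against VN. FREM2 was called higher on VN (0.30) and VNP2 (0.27), as was FRAS1 (0.25 and 0.18).

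Netrins carry the same N-terminal domain as laminin short arms. Of 6 listed, 5 were tested, and 2 were called lower on VN (9.64% of all genes). On VNP2 the call was lower for 2 (9.15%) and higher for 1 (7.43%). NTN1, the netrin that guides axons and migrating oligodendrocyte precursors, had 21950.3 and 21820.3 with Matrigel, 18732, 17302 and 17414 with VN, and 26369, 26558 and 26548 with VNP2. No library of one substrate overlapped another, with VNP2 highest and VN lowest. Its differences were -0.30 (adjusted p = 0.00049) for VN and 0.28 (adjusted p = 0.000616) for VNP2 against Matrigel, and 0.57 (adjusted p = 1.36e-05) for VNP2 against VN. NTN4, a netrin that binds the laminin LAMC1 chain, was called lower on VNP2 against Matrigel (-0.26, adjusted p = 0.0176, with -0.12 (adjusted p = 0.234) on VN), and NTNG1, a membrane-anchored netrin, was lower on VN (-0.77, adjusted p = 0.0111) and on VNP2 (-0.54, adjusted p = 0.0475).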

How the data were processed

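The series measured polyadenylated RNA of OPCs in stranded paired-end libraries. Per the study's methods and the submitters' notes, the authors trimmed reads with Trim Galore and ran Salmon on GENCODE release 32 transcripts (GRCh38.p13). They deposited estimated counts and TPM per transcript, and a signal per gene, the normalized counts that tximport and DESeq2 1.27.12 gave. Whether Salmon used strand is not given in the sources used here, so LAMA4, LAMA5 and LAMC1 may share reads with their antisense genes. Here estimated counts were summed per gene through GENCODE release 29 identifiers (205225 of 226608 transcripts; 98.8 to 98.9% of counts), rounded, and fitted in edgeR 4.0.16 (R 4.3.3) with TMM, length offsets and filterByExpr (minimum count 10, total 15), 8 libraries in 1 fit, without a block. Transcripts without a release 29 identifier were left out of these sums, and the part of this in the LAMA4 values was not tested. For LAMA4 the authors' values averaged 1.04 times those summed here (993 against 822 in VN replicate 1, 875 against 950.0 in Matrigel replicate 3). For the other members that ratio ranged from 0.99995 to 1.0001. Quasi-likelihood tests were two-sided, and SEs are approximate, from the fold change and its F. Shares and TPM sums had no test. A count of 100 has a sampling error of about 10%, so rare members have wide intervals.

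Members and gene lists were chosen with earlier results of these data known. Named genes are the 10 members and LAMB4, the called genes of each list with the largest changes (at most 3 per comparison), direct partners (NID1, NID2, HSPG2, DAG1, ITGA6, ITGB1), defining markers, and for 3 members the 3 genes of highest r with a mean count of at least 100. Others (ITGA2, ITGA7, ITGB4 and COL4A5 among them) complete a list and were chosen after their values were seen. Results were recomputed with DESeq2 1.42.0, with RLE, without length offsets, without a filter or with 50 counts asked of each library, with a block on replicate number, with the libraries of the pair alone, with limma 3.58.1 on the deposited normalized counts (pseudocount 1 or 10), and leaving out each library. The edgeR script was tested on simulated data. A further planned gene and 2 planned gene lists are not reported here.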

Additional observations from a re-analysis of the deposited data

How the results depend on the processing

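Over 17 alternative settings and the differences of 9 members in 3 comparisons, 411 values kept their direction and their side of the threshold, 31 gained a call, 6 lost one and 11 changed sign, none of those 11 with a call. LAMA2, LAMA4, LAMB1 and LAMC1 kept each of their calls in every setting. The calls lost were all of LAMC3 on VNP2 against Matrigel. Members called on VN against Matrigel rose from 2 to 4 without length offsets, where 16.9% of all genes were called. They also rose to 4 without a filter (9.70% of all genes). Those between VNP2 and VN rose from 3 to 5 without length offsets (6.07%), without a filter (4.13%) and with the replicate block (6.30%). Those across all substrates rose from 4 to 8 without a filter (13.1%). The cause was not tested. Leaving out each library in turn gave 2 to 3, 4 to 7, 3 to 4 and 4 to 6 called members for VN against Matrigel, VNP2 against Matrigel, VNP2 against VN and all 3 substrates.

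Signs turned for LAMA4 on VN against Matrigel with the authors' normalized counts (0.0995 at a pseudocount of 1 and 0.0986 at 10), and for LAMA1 (0.0058) and LAMB2 (0.087) on VNP2 against VN without length offsets. They also turned within the ranges from leaving out a library, for LAMA1 (-0.080 to 2.65e-05) and LAMA3 (-0.13 to 0.50) on VN against Matrigel, and for LAMB2 (-0.11 to 0.041) and LAMC3 (-0.060 to 0.27) on VNP2 against VN. Where a single Matrigel library remained, it was assumed to vary like the other groups.

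Counts of all called genes moved more. VN against Matrigel fell from 2785 to 1228 and 1189 without Matrigel replicate 2 or 3, VNP2 against Matrigel from 3019 to 1637 and 1609, and all 3 substrates from 3522 to 1910 and 1882. VNP2 against VN went from 929 to 1997 without VN replicate 1, and to 582 and 578 without VN replicate 2 or 3 and 548 and 552 without VNP2 replicate 1 or 3. Same-numbered VN and VNP2 libraries deviated together with r of -0.133, 0.011 and -0.132 over 12996 genes. Matrigel replicates 2 and 3 gave 0.161 and -0.096 with the VN libraries of their number, and -0.051 and 0.034 with those of VNP2. Libraries of unlike number reached 0.207, so the replicate numbers were not read as pairs. A block on replicate number raised the counts of all called genes, to 3391 for VN and 3171 for VNP2 against Matrigel. They were then 1146 for VNP2 against VN and 3997 for all 3 substrates. With the block, LAMA3 (-0.80) and LAMB1 (0.23) gained a call on VNP2 against VN, LAMB2 gained one on VNP2 against Matrigel (-0.26) and LAMC3 lost one (0.74). Depth limits the rare chains LAMB3, LAMB4, LAMA3 and LAMC3.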

Other observations

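Inside the cell, dystroglycan, a laminin receptor, is held by the dystrophin complex, of which 11 of 13 genes were tested. Of these, 2 were called higher and none lower on VN (5.66% and 9.64% of all genes), and 2 higher and 1 lower on VNP2 (7.43% and 9.15%). DMD, the gene for dystrophin, had 7083 and 6996 with Matrigel, 7555, 8354 and 8758 with VN, and 9299, 9787 and 9788 with VNP2 normalized counts, with no overlap between substrates, and rose by 0.22 (adjusted p = 0.0233) on VN and 0.45 (adjusted p = 0.000336) on VNP2. SNTB1, a syntrophin, was higher on VNP2 alone (0.97, adjusted p = 0.000243 against Matrigel and 1.05 (adjusted p = 0.000272) against VN), and SGCD, a sarcoglycan, was higher on VN (1.02, adjusted p = 0.00832 against Matrigel) and not called on VNP2 (0.30, adjusted p = 0.395).

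Proteases that cut laminin chains or basement membranes moved in both directions. Of 7 listed, all tested, 4 were called lower and 1 higher on VN (9.64% and 5.66% of all genes), and 4 lower and 2 higher on VNP2 (9.15% and 7.43%). Between VNP2 and VN, 2 were called higher and none lower (3.09% and 2.01%). PLAU, the urokinase that activates plasminogen, had 707 and 739 with Matrigel, 114, 112 and 109.7 with VN, and 243, 183 and 157 with VNP2 normalized counts. The 3 substrates did not overlap, with VNP2 above VN, and the study lists PLAU as higher on VNP2 than on VN. PLAU was 6.46-fold lower on VN (adjusted p = 1.5e-06) and 3.72-fold lower on VNP2 (adjusted p = 8.56e-06) than on Matrigel. MMP2, a gelatinase, fell by 0.35 and 0.42 on the log2 scale, and PLAT, the tissue plasminogen activator, by 0.57 and 0.40. The tolloid-like proteases went the other way, with TLL2 higher on VN (0.60, adjusted p = 0.00473) and VNP2 (0.93, adjusted p = 0.000192) and TLL1 higher on VNP2 alone (0.68, adjusted p = 0.0102 against Matrigel and 0.83 (adjusted p = 0.00489) against VN).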
